A study of Homo sapiens with 10 samples.

Results

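The regions described here are close pairs of H3K27ac peak windows that stand alone in the genome of Rh30 cells. The deposited table holds 42067 peak windows. Windows on the same chromosome were stitched into 1 group whenever the next start lay within 12.5 kb of the previous end. A close pair is a stitched group of exactly 2 windows on an autosome whose gap is under 1000 bases. The rule uses positions only and found 1584 close pairs among the 26314 stitched groups of the whole table, or 3168 windows, 7.53% of all windows. For comparison, 3304 autosomal groups of 2 windows had wider gaps, 17547 autosomal windows stood alone and 3215 autosomal groups held 3 or more windows. The other 664 groups lay on X and Y.

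Acetylation of lysine 27 on histone H3 marks active promoters and enhancers. Such elements usually carry a stretch of open DNA where transcription factors bind, and the acetylated nucleosomes lie to either side of it. A single active element can therefore appear in ChIP-seq as a pair of neighbouring peaks with a dip between them. The counts hold no measure of open DNA or of nucleosome position, so whether the windows of a close pair lie around 1 such site was not tested. PAX3-FOXO1 is the fusion transcription factor that drives most alveolar rhabdomyosarcoma, a muscle-like childhood tumour, and it is known to bind enhancers and to recruit coactivators that acetylate histones.

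H3K27ac was measured by chromatin immunoprecipitation and sequencing in Rh30, an established human alveolar rhabdomyosarcoma line, here carrying PAX3-FOXO1 joined to FKBP. FKBP serves as a degron that the ligand dTAG47 uses to send the fusion protein to degradation. The 4 groups were DMSO, the solvent control, and 500 nM dTAG47 for 2 h, 4 h and 24 h, with 2 libraries in each, and every group carried the PAX3-FOXO1-FKBP fusion. The labels do not say whether the cells are 1 clone, and they give no time for DMSO, so time in culture and time in dTAG47 cannot be told apart. The same DMSO libraries served every comparison with DMSO. The level of the fusion protein was not part of the data, so its loss was not checked here.

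Libraries held between 3540104 and 5001652 counts in all windows, and close pairs took between 6.62% and 6.80% of each library. The median close pair held between 101 and 142 counts per library, and the median window in such a pair between 48 and 67. Levels below are CPM, counts scaled to a common library size by the trimmed mean of M values, and log2 changes are treated over control or later over earlier. The scaling removes any change common to all windows, which therefore cannot be seen. Nothing states that the 2 libraries of a group came from separate cultures, so the p-values measure the spread between these libraries, which may be technical.

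The gap between the windows of a close pair ran from 74 to 999 bases with a median of 499. Most pairs had gaps in the middle of this range. The bin from 300 to 399 bases held 251 pairs, the largest number per 100 bases, while only 4 pairs had gaps under 100. Each window spanned 400 bases, so the centres of the windows were a median of 899 bases apart and the whole pair spanned between 874 and 1799 bases. The nearest other group lay a median of 25921.5 bases away. Among all 2-window groups, 32.4% had a gap under 1000 bases. Their numbers were highest in the bin from 250 to 499 bases, with 610 groups, and lowest in the bin from 3000 to 3249 bases, with 28. Wider gaps were again more frequent, and the median of the groups with gaps of 1000 bases or more was 7036 bases.

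**Figure D1:**
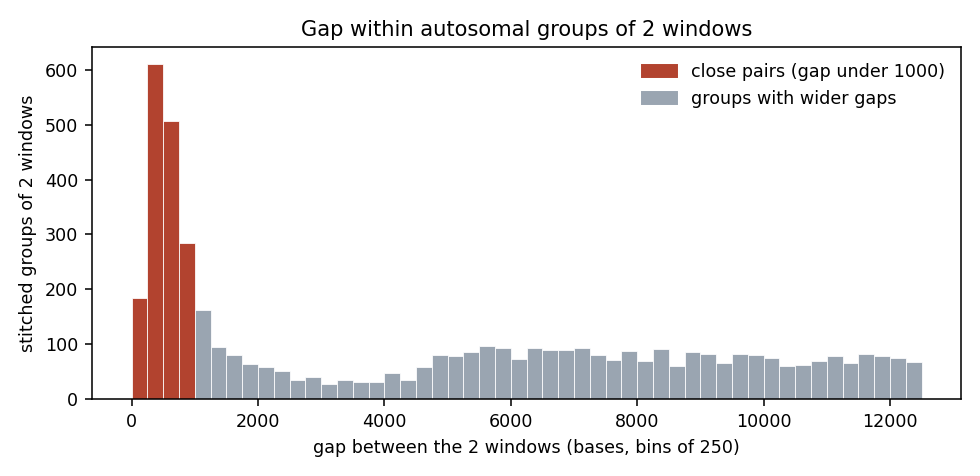
Number of autosomal groups of 2 windows by the gap between the windows, in bins of 250 bases, with close pairs in red and wider gaps in grey. Close pairs peak in the bin from 250 to 499 bases with 610 groups, and the count falls to 28 in the bin from 3000 to 3249 bases.

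Close pairs were found on every autosome. They made up between 3.86% of the stitched groups on chromosome 12 and 7.17% on chromosome 11. Chromosome 1 held the most, 180, and chromosome 18 the fewest, 23. The share on chromosome 20, 3.99%, was close to that on chromosome 12.

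The summed H3K27ac level of a close pair had a median of 27.6 CPM over the 8 libraries, and the middle of the range ran from 18.0 to 52.1 CPM (25th to 75th percentile). This compares with 29.7 CPM in groups of 2 windows with wider gaps and 19.1 CPM over all tested groups. Taken singly, the windows of close pairs had a median of 13.5 CPM, against 12.03 CPM in wider groups, 10.8 CPM in windows standing alone and 17.8 CPM in groups of 3 or more. The upper end was different. The 75th percentile was 24.1 CPM in close pairs, 26.4 CPM in wider groups and 31.9 CPM in windows standing alone. These are descriptions of the classes, with no test between them.

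The windows of a close pair had similar levels. The log2 levels of the left and right window correlated across 1584 close pairs with r = 0.72, against r = 0.29 across the 3304 groups with wider gaps. The windows of a pair come from the same libraries and, at this distance, can share DNA fragments, so the points are not free of shared measurement. The stronger window held a median of 1.40 times the level of the weaker one, against 1.72 times in wider groups. A ratio over 2 was found in 334 close pairs, or 21.1%, against 41.2% of wider groups. The left window, the one with the lower coordinate, was the stronger in 771 pairs, or 48.7%. The likeness held just outside the limit as well, with r = 0.76 at gaps from 1000 to 2000 bases and r = 0.67 from 2000 to 5000, and it was low, r = 0.15, at wider gaps.

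Treatment with dTAG47 was followed by lower H3K27ac at some close pairs within 2 h and by both losses and gains at 24 h. Counts were summed over both windows and tested with the quasi-likelihood test of edgeR over all 26144 tested groups together. These included all 1584 close pairs, and also groups on X and Y. Calls were made at an adjusted p (Benjamini-Hochberg) under 0.05. At 2 h, 45 close pairs, 2.84%, were lower than DMSO, beside 1.53% of all tested groups. A further 8 pairs, 0.505%, were higher, beside 0.474%. At 4 h, 65 pairs, 4.10%, were lower and 27, 1.70%, were higher, beside 2% and 0.972% of all groups. At 24 h, 155 pairs, 9.79%, were lower and 121, 7.64%, were higher, beside 5.55% and 4%.

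The share of close pairs called was above that of all groups in both directions, most narrowly among the gains at 2 h. Groups differ in the counts behind them, and a pair holds more than a window standing alone. Wider groups of 2 windows are the nearest match in level, and 6.96% of them were lower at 24 h and 4.63% higher. Groups of 3 or more windows, whose median level was 79.8 CPM, were called more often, with 12.3% lower and 10.7% higher. Windows standing alone were called least, with 3.68% lower and 2.41% higher. The part of the level in these shares was not tested.

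**Figure D2:**
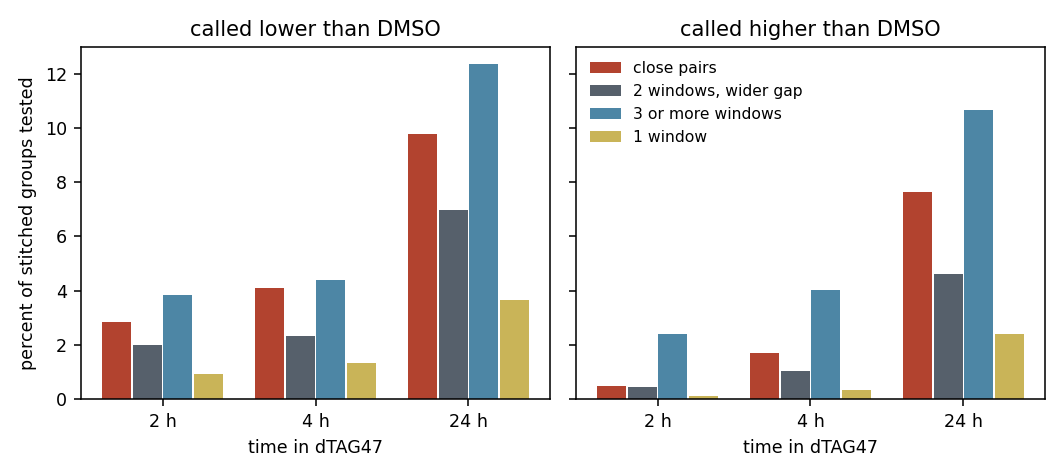
Percent of tested groups called lower (left panel) and higher (right panel) than DMSO at 2 h, 4 h and 24 h of dTAG47, for close pairs, groups of 2 windows with wider gaps, groups of 3 or more windows and single windows. At 24 h, 9.79% of close pairs were lower and 7.64% higher, against 3.68% and 2.41% of single windows.

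The changes at called pairs were moderate. For the pairs called lower, the median log2 change was -0.67 at 2 h and -0.65 at both later times. For those called higher it was 0.51 at 2 h, 0.54 at 4 h and 0.61 for the longest exposure. Over all close pairs the median log2 change at 24 h was 0.00. A change of more than 2-fold at 24 h was found in 25 of the pairs called lower and in 4 of those called higher. The share of such changes over all groups is not given here. Over all groups called at 24 h the median log2 change was -0.60 for losses and 0.57 for gains. The counts of calls rest on small groups: leaving out 1 library at a time left between 97 and 113 pairs lower and between 58 and 74 higher at 24 h, with the lowest counts in both directions without DMSO library B. At 2 h between 18 and 39 were left lower and between 0 and 7 higher, lowest without 2 h library B for losses and without DMSO library B for gains. At 4 h between 30 and 42 were left lower and between 8 and 13 higher, lowest without DMSO library B for losses and without DMSO library A for gains. The Wald test of DESeq2 called fewer pairs, with 5 lower and 0 higher after 2 h, 14 lower and 1 higher after 4 h, and 55 lower and 21 higher after 24 h. Of the close pairs with an adjusted p in DESeq2 these were 0.341%, 0.899% and 3.48% for losses, beside 0.236%, 0.429% and 1.51% of all groups with one, and 0%, 0.0642% and 1.33% for gains, beside 0.0248%, 0.0589% and 0.598%. Beside the 0 gains of DESeq2 at 2 h, edgeR had 89 close pairs higher with an unadjusted p under 0.05, of 1351 such groups in all.

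The windows were also tested singly. Of 3158 windows of close pairs that passed the filter on low counts, 49, 1.55%, were lower and 5, 0.158%, higher at 2 h. This compares with 1.03% and 0.194% of all 41791 windows tested. At 4 h, 66, 2.09%, were lower and 20, 0.633%, higher, beside 1.67% and 0.567%. At 24 h, 209, 6.62%, were lower and 122, 3.86%, higher, beside 4.88% and 3.46%. The shares also differed with level. With all windows divided into 4 equal classes by level, 4.65% of close-pair windows in the lowest class were lower at 24 h, against 2.99% of all windows there. In the next class up these shares were 7.98% and 5.48%, in the one above it 7.41% and 5.99%, and in the highest class 4.82% and 5.06%. For gains the shares were 4.29% and 2.96% in the lowest class, 3.61% and 3.57% in the next, 4.97% and 4.90% in the one above it, and 2.16% and 2.43% in the highest class.

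The largest named loss at 24 h was at the pair on chromosome 11 at 19206070 to 19207506 on the hg19 build, with a gap of 636 bases. Coordinates are as deposited, where starts may count from 0 or 1, and with no annotation of this build at hand pairs are named by position and no gene is assigned. The pair held 16.8 and 14.6 CPM in the 24 h libraries, against 47.4 and 47.3 CPM in DMSO. At 2 h it held 23.7 and 22.6 CPM and at 4 h 18.3 and 21.1 CPM. All 6 treated libraries lay below both DMSO libraries. The log2 change at 24 h was -1.58 (SE 0.14, edgeR adjusted p = 6.92e-22). Both windows fell: the left held 6.78 CPM at 24 h, against 24.2 CPM in DMSO (log2 change -1.83), and the right 8.92 CPM, against 23.3 CPM (log2 change -1.37).

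On chromosome 17 at 37279288 to 37280670, the pair with a gap of 582 bases held 12.7 and 16.6 CPM at 24 h, against 46.0 and 38.5 CPM in DMSO. The 2 h libraries held 25.7 and 22.8 CPM and the 4 h libraries 20.3 and 23.8 CPM, so the groups did not overlap between DMSO and any time of treatment. The log2 change was -1.54 (SE 0.15, edgeR adjusted p = 7.3e-19) at 24 h. It was also lower at 24 h than at 4 h, with a log2 change of -0.61 (SE 0.17, edgeR adjusted p = 0.0312). Its right window was the larger, with 8.09 CPM at 24 h, against 26.2 CPM in DMSO, and its left window held 6.56 CPM at 24 h, against 16.2 CPM.

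Uneven control libraries were seen at the pair on chromosome 1 at 209720421 to 209722028. It held 19.6 and 18.6 CPM at 24 h, against 47.4 and 64.0 CPM in DMSO, and 34.8 and 27.3 CPM at 2 h and 22.2 and 26.1 CPM at 4 h. The DMSO libraries were further apart than those of any treated group but still lay above all of them. The log2 change at 24 h was -1.54 (SE 0.13, edgeR adjusted p = 9.94e-24), with -1.34 in the left window and -1.77 in the right. At 2 h the left window's log2 change was -1.07 and the right window's -0.70, while at 4 h they were -1.14 and -1.27. The direct test of a difference between the windows, described below, was not passed at either time (edgeR adjusted p = 0.76 and 0.942).

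A second pair on chromosome 17, at 27522010 to 27523252, held 12.5 and 11.8 CPM at 24 h, against 29.5 and 35.7 CPM in DMSO. The libraries at 2 h held 17.4 and 19.8 CPM and those at 4 h 18.3 and 17.4 CPM. DMSO libraries were highest and 24 h libraries lowest, with no overlap. The log2 change at 24 h was -1.42 (SE 0.17, edgeR adjusted p = 1.67e-13). Early, the right window passed the test singly, with log2 changes of -1.10 at 2 h and -1.36 at 4 h (edgeR adjusted p = 0.00027 and 3.48e-06). The left window had -0.42 and -0.32 at these times (edgeR adjusted p = 0.529 and 0.609) and -1.01 at 24 h (edgeR adjusted p = 0.00325).

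Early and late values also differed between windows at the pair on chromosome 1 at 231229320 to 231231002. The pair held 14.1 and 13.2 CPM at 24 h, against 32.9 and 37.9 CPM in DMSO, and its log2 change was -1.37 (SE 0.16, edgeR adjusted p = 1.01e-13). Its right window held 14.2 and 13.6 CPM in DMSO, 5.50 and 5.55 CPM at 2 h, 2.45 and 2.73 CPM at 4 h, and 5.35 and 4.78 CPM at 24 h. The 4 h libraries were the lowest of all in that window. The left window held 18.8 and 24.4 CPM in DMSO, 15.1 and 11.5 CPM at 2 h, 10.1 and 15.6 CPM at 4 h, and 8.72 and 8.42 CPM at 24 h, so its lowest values came at 24 h.

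On chromosome 11, 2 further pairs lay close together. The pair at 20297552 to 20298883 held 15.1 and 15.9 CPM at 24 h, against 36.9 and 42.7 CPM in DMSO (log2 change -1.36, SE 0.15, edgeR adjusted p = 3.96e-15). The pair at 20242930 to 20244611 lay 52.9 kb away and held 15.7 and 18.6 CPM at 24 h, against 32.1 and 34.8 CPM in DMSO (log2 change -0.97, SE 0.15, edgeR adjusted p = 9.9e-08). At 4 h the second of these held 17.2 and 14.4 CPM, overlapping the 24 h libraries. From the pair at 19206070 they lay 1090 kb and 1035 kb away.

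At 2 h, the largest named losses were again at 19206070 on chromosome 11, with a log2 change of -1.03, and at 231229320 on chromosome 1, with -0.92. The pair on chromosome 1 at 23134562 to 23135769 held 19.9 and 23.01 CPM at 2 h, against 39.5 and 39.9 CPM in DMSO (log2 change -0.88, SE 0.15, edgeR adjusted p = 2.93e-06). Its 4 h libraries stood apart from each other, at 29.0 and 16.4 CPM, both below DMSO. On chromosome 3 at 58566723 to 58568337, the pair held 22.9 and 17.0 CPM at 2 h, against 35.5 and 35.4 CPM in DMSO (log2 change -0.85, SE 0.15, edgeR adjusted p = 1.56e-05). Without 2 h library B its change was -0.63 with an adjusted p of 0.0931 (edgeR). There the right window had a log2 change of -1.27 at 2 h, and the left -0.44 (edgeR adjusted p = 0.402). By the Wald test of DESeq2, the 2 h losses at 231229320, 23134562, 58566723 and 20297552 missed the threshold, with adjusted p from 0.0641 to 0.0842.

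The largest named gain at 24 h was at the pair on chromosome 1 at 95338788 to 95340345, with a gap of 757 bases. It held 40.2 and 40.5 CPM at 24 h, against 17.9 and 17.8 CPM in DMSO. At 2 h it held 17.9 and 22.4 CPM and at 4 h 20.8 and 22.3 CPM. The 24 h libraries stood above all others, and those of 2 h and 4 h were near DMSO. The log2 change at 24 h was 1.17 (SE 0.15, edgeR adjusted p = 5.9e-12). Both windows rose, by 1.44 on the log2 scale at the left and 0.93 at the right.

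Another pair on chromosome 1, at 120279589 to 120281009, held 26.2 and 28.4 CPM at 24 h, against 12.2 and 15.3 CPM in DMSO (log2 change 0.98, SE 0.17, edgeR adjusted p = 1.73e-06). Its 2 h libraries held 18.5 and 19.4 CPM and its 4 h libraries 20.3 and 18.1 CPM, between DMSO and 24 h, and neither early time passed the test. At 4 h its windows had unlike values: the log2 change was 0.05 at the left and 0.87 at the right (edgeR adjusted p = 0.972 and 0.0614).

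The pair on chromosome 1 at 230961773 to 230963074 held 44.0 and 40.7 CPM at 24 h, against 23.6 and 24.1 CPM in DMSO (log2 change 0.83, SE 0.13, edgeR adjusted p = 1.62e-07). It held 32.8 and 29.0 CPM at 2 h and 40.8 and 35.5 CPM at 4 h. Its windows moved in near equal measure, by 0.89 at the left and 0.77 at the right on the log2 scale at 24 h. This pair lies 266 kb from the pair at 231229320, where H3K27ac fell in both windows.

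On chromosome 2 at 218486572 to 218488026, the pair held 50.9 and 51.4 CPM at 24 h, against 28.1 and 30.3 CPM in DMSO (log2 change 0.81, SE 0.12, edgeR adjusted p = 1.8e-08). Its left window, the stronger, held 33.3 and 34.4 CPM at 24 h, against 19.4 and 21.0 CPM in DMSO. The right held 17.6 and 17.1 CPM, against 8.83 and 9.38 CPM. The right window passed the test at 4 h as well (log2 change 0.75, edgeR adjusted p = 0.0472), where the left did not (0.28, edgeR adjusted p = 0.475).

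The remaining named gains at 24 h were at chromosome 19, 7534822 to 7535858, and at chromosome 7, 1764471 to 1766038. The first held 25.6 and 30.02 CPM at 24 h, against 17.3 and 13.3 CPM in DMSO (log2 change 0.85, SE 0.17, edgeR adjusted p = 3.05e-05). The second held 28.7 and 37.8 CPM at 24 h, against 19.3 and 18.4 CPM in DMSO (log2 change 0.81, SE 0.15, edgeR adjusted p = 1.26e-05). The 24 h libraries of the second were far apart, and the lower of them was near the 2 h and 4 h libraries, which lay between 26.5 and 27.4 CPM.

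**Figure D3:**
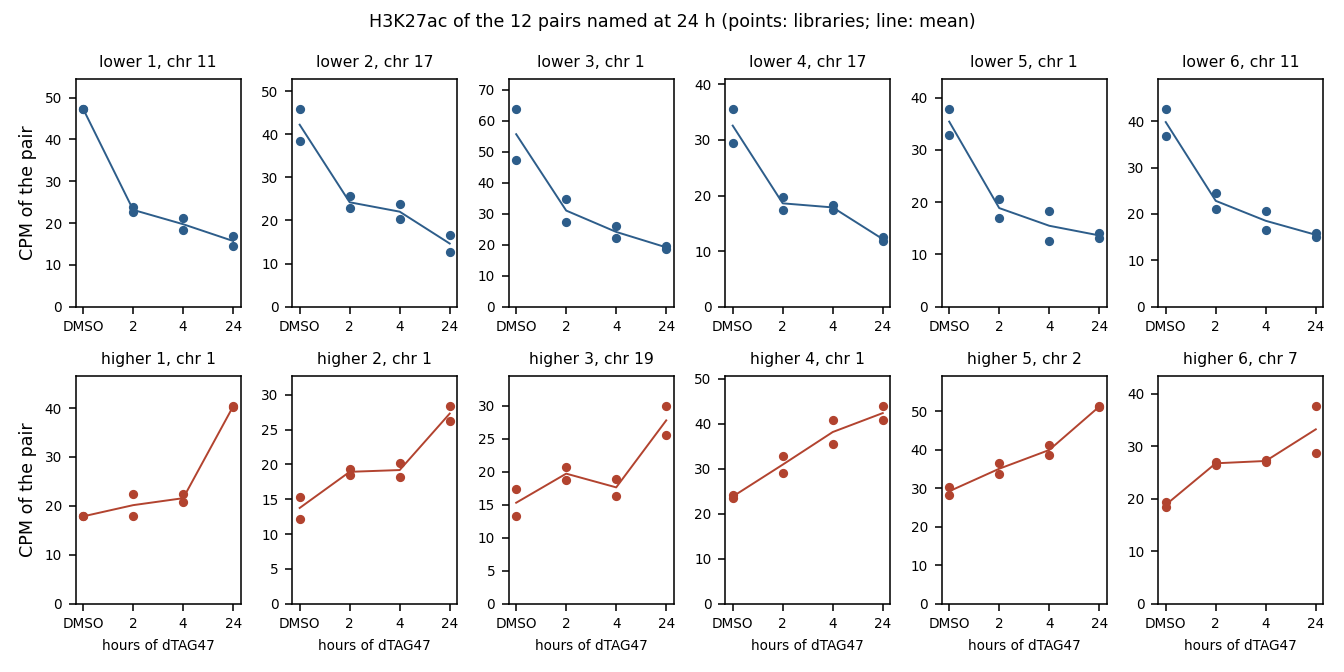
H3K27ac of the 6 close pairs with the largest named loss (top row) and gain (bottom row) at 24 h, in CPM on axes from 0, by group in the order DMSO, 2 h, 4 h and 24 h with unequal times set at equal steps. Points are libraries and lines join group means; pairs were named only where both 24 h libraries lie on one side of both DMSO libraries, and in the first gain the 24 h libraries at 40.2 and 40.5 CPM stand above all others.

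Each of the 6 gains named at 2 h lost its call without at least 1 of the 4 libraries, left out in turn. The pair on chromosome 7 at 127851045 to 127852454 held 25.9 and 26.6 CPM at 2 h, against 16.7 and 13.6 CPM in DMSO (log2 change 0.79, SE 0.17, edgeR adjusted p = 0.00127). Without DMSO library B the adjusted p was 0.145, and without 2 h library B 0.0587 (both edgeR). Its left window rose by 0.92 at 2 h and 1.07 at 24 h on the log2 scale, and its right window had changes of 0.66 and 0.37 that did not pass the test. On chromosome 6 at 41470490 to 41472122, the pair held 48.0 and 37.1 CPM at 2 h, against 29.0 and 26.3 CPM in DMSO (log2 change 0.60, SE 0.13, edgeR adjusted p = 0.00169). Without 2 h library A its adjusted p was 0.194, and without DMSO library B 0.103 (both edgeR). All 6 gains named at 2 h missed the threshold in DESeq2, with adjusted p from 0.245 to 0.769.

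Of the 6 gains named at 4 h, 2 kept their call whichever library was left out. The pair on chromosome 11 at 17002810 to 17004112 held 32.6 and 31.8 CPM at 4 h, against 17.0 and 19.2 CPM in DMSO (log2 change 0.82, SE 0.16, edgeR adjusted p = 8.61e-05). On chromosome 14 at 77334000 to 77335452, the pair held 45.4 and 44.9 CPM at 4 h, against 25.8 and 26.3 CPM in DMSO (log2 change 0.79, SE 0.13, edgeR adjusted p = 3.16e-06). Both remained above DMSO in the 24 h libraries, at 29.5 and 30.02 CPM in the first pair and 40.2 and 42.3 CPM in the second. A pair on chromosome 1, at 42023736 to 42025282, was called higher at every time, with a log2 change of 0.45 after 2 h (edgeR adjusted p = 0.00808), 0.56 after 4 h (edgeR adjusted p = 0.000163) and 0.65 after 24 h (edgeR adjusted p = 2.1e-07). It held 69.6 and 61.0 CPM at 24 h, against 44.3 and 39.1 CPM in DMSO. Its 2 h call was lost without 2 h library B (edgeR adjusted p = 0.318) and without DMSO library B (0.278). In DESeq2 the 4 h gain at 77334000 passed the threshold, and the other 5 named at that time had adjusted p from 0.0596 to 0.430.

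Some close pairs differed between 24 h and the earlier times of dTAG47. Between 24 h and 4 h of dTAG47, 42 close pairs, 2.65%, were lower and 20, 1.26%, were higher, beside 1.24% and 0.754% of all tested groups. Between 24 h and 2 h, 89, 5.62%, were lower and 85, 5.37%, were higher, beside 3.14% and 2.2%. These counts were more sensitive to the libraries used: leaving out 1 library at a time left between 14 and 19 lower and between 4 and 9 higher for 24 h over 4 h. The lowest counts came without 4 h library B, and for the losses also without 24 h library A. For 24 h over 2 h the ranges were 39 to 47 and 26 to 51, lowest in both directions without 2 h library B. Of the windows taken singly, 25, 0.792%, were lower and 14, 0.443%, higher at 24 h than at 4 h. The shares of all windows were near these, at 0.68% and 0.438%. At 24 h against 2 h, 78, 2.47%, were lower and 81, 2.56%, higher, beside 2.49% and 1.69% of all windows.

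The largest named late loss was at chromosome 2, 125456183 to 125457293, with a gap of 310 bases. The pair held 13.5 and 10.2 CPM at 24 h, against 23.8 and 23.1 CPM at 4 h (log2 change -0.97, SE 0.18, edgeR adjusted p = 6.4e-05). At 2 h it held 28.4 and 25.1 CPM and in DMSO 28.4 and 28.9 CPM, and neither early time passed the test against DMSO. A late loss on chromosome 10 was at 109304515 to 109305963, where the pair held 20.2 and 17.3 CPM at 24 h, against 37.8 and 34.3 CPM at 4 h (log2 change -0.93, SE 0.14, edgeR adjusted p = 4.24e-07). Most of its signal was in the right window, which held 14.9 and 10.9 CPM at 24 h, against 29.6 and 34.1 CPM in DMSO.

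The strongest of the named late losses by level was on chromosome 1 at 30180897 to 30182600, with a gap of 903 bases. It held 42.4 and 39.3 CPM at 24 h, against 67.9 and 69.3 CPM at 4 h (log2 change -0.74, SE 0.10, edgeR adjusted p = 6.33e-09), and 73.8 and 76.7 CPM in DMSO. Relative to DMSO the 24 h log2 change was -1.20 in its left window and -0.69 in its right. A weaker pair on chromosome 1, at 20356974 to 20358501, held 11.5 and 14.3 CPM at 24 h, against 23.8 and 23.1 CPM at 4 h (log2 change -0.87, SE 0.18, edgeR adjusted p = 0.000492). Without 24 h library A its adjusted p was 0.0925 (edgeR).

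Among the named late gains, the pair at 95338788 on chromosome 1 had the largest change of 24 h over 4 h, 0.90 (SE 0.14, edgeR adjusted p = 4.24e-07). On chromosome 22 at 43303477 to 43304758, the pair held 54.3 and 61.6 CPM at 24 h, against 39.7 and 40.2 CPM at 4 h (log2 change 0.53, SE 0.11, edgeR adjusted p = 0.000529). Its DMSO libraries held 38.6 and 41.6 CPM, level with 4 h. This call was lost without 24 h library B (edgeR adjusted p = 0.0657). The late gain at 7534822 on chromosome 19 was 0.65 (SE 0.16, edgeR adjusted p = 0.00654), and it was lost without 4 h library B (0.233) and without 24 h library B (0.176). On chromosome 6 at 158896020 to 158897000, a pair with a gap of 180 bases held 32.7 and 32.8 CPM at 24 h, against 22.2 and 22.3 CPM at 4 h (log2 change 0.56, SE 0.14, edgeR adjusted p = 0.0133). It missed the threshold when any 1 of the 4 libraries was left out, with edgeR adjusted p from 0.0839 to 0.168. In DESeq2, 5 of the 8 late changes named here missed the threshold, at 125456183, 20356974, 7534822, 158896020 and 43303477, with adjusted p from 0.0705 to 0.853.

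Between 4 h and 2 h, 1 close pair was lower and 0 were higher by edgeR, beside 0.00382% and 0% of all groups. At an unadjusted p under 0.05, 43 were lower and 84 higher, beside 966 and 911 of all 26144 tested groups, and the Wald test of DESeq2 called 0 in either direction. The single call was at chromosome 2, 110255579 to 110256831, named after its values were seen. It held 17.0 and 19.4 CPM at 4 h, against 31.7 and 30.7 CPM at 2 h (log2 change -0.77). The 2 h libraries stood above all other libraries, with DMSO at 20.4 and 21.2 CPM and 24 h at 17.8 and 21.8 CPM. Leaving out any 1 library ended the call, with edgeR adjusted p from 0.278 to 0.495.

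The windows of a close pair changed in the same direction in nearly all called pairs. Of the 155 pairs lower at 24 h, 152 had lower values in both windows. Both windows passed the test singly in 53, 1 window did in 79 and neither did in 23. Of the 121 pairs that were higher, both windows had higher values in all 121, with 19, 65 and 37 in these classes. The sum decides the call, so like signs in called pairs are partly set by the choice of pairs. No pair had its windows called in opposite directions at 2 h, 4 h or 24 h. Among the pairs not called at 24 h, 24 had a window called lower and 19 a window called higher.

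Over all 1584 close pairs, the log2 changes of the left and right window at 24 h correlated with r = 0.59, against r = 0.27 over the 3304 wider groups. The earlier times gave 0.27 and 0.17 (2 h) and 0.40 and 0.20 (4 h). The left and right change of a pair come from the same 4 libraries. The left change was also taken from 1 library of each group and the right from the other. For the 2 ways to divide them, r at 24 h was 0.448 and 0.442 in close pairs, and 0.198 and 0.192 in wider groups. The change of the same window measured in separate libraries correlated with r = 0.54 for left and 0.55 for right windows of close pairs. In wider groups these values were 0.47 and 0.45. Partner windows of close pairs in separate libraries were therefore somewhat less alike than a window and itself. With at least 50 counts on average in both windows, r at 24 h was 0.63 over 710 close pairs and 0.38 over 1003 wider groups. The signs at 24 h were the same in 64.8% of close pairs and in 56.8% of wider groups.

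**Figure D4:**
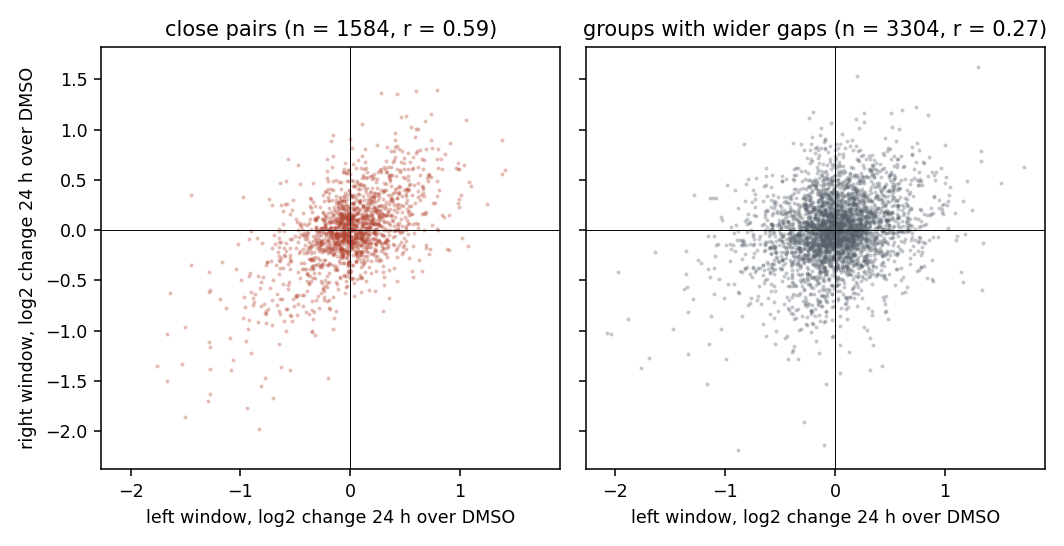
Log2 change at 24 h over DMSO of the left window (horizontal axis) and of the right window (vertical axis), 1 point per pair, for the 1584 close pairs (left panel) and the 3304 groups with wider gaps (right panel). Close pairs lie along the diagonal with r = 0.59, and wider groups spread more evenly with r = 0.27.

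At 24 h likeness of change was higher at gaps under 2000 bases than beyond. By bin, r was 0.52 for gaps under 300 bases, 0.57 from 300 to 500, 0.63 from 500 to 700 and 0.62 from 700 to 1000. Beyond the limit it was 0.54 from 1000 to 2000 bases, 0.26 from 2000 to 5000 and 0.22 above that. For 2 h over DMSO, r in the same bins was 0.13, 0.16, 0.38 and 0.35 within the limit. Beyond it r was 0.38, 0.12 and 0.14. The same window measured in separate libraries also gave its lowest r at 2 h with gaps under 300 bases, 0.06 for left and 0.13 for right windows. These values were 0.12 and 0.24 from 300 to 500, 0.38 and 0.31 from 500 to 700, and 0.26 and 0.31 from 700 to 1000. The low r at small gaps therefore does not show that partner windows there were less alike, which was not tested. The stronger window, chosen by its level in the 2 h and 4 h libraries only, did not change more than the weaker. In pairs called lower at 24 h the median log2 change was -0.64 in the stronger and -0.65 in the weaker window, and in pairs called higher 0.59 and 0.56.

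Losses at 24 h were called in more of the pairs with wider gaps within the limit, though differences between the bins of gaps were not tested. The share lower at 24 h was 7.38% for gaps under 300 bases, 8.27% from 300 to 500, 10.9% from 500 to 700 and 12.5% from 700 to 1000. The shares that were higher were 7.05%, 6.05%, 7.51% and 10.3%. The earlier times did not show the same order: the share lower in these bins was 2.68%, 1.21%, 4.12% and 3.71% at 2 h, and 3.02%, 2.62%, 6.54% and 4.24% at 4 h. Median levels in these bins were alike, between 27.4 and 28.6 CPM. Beyond the limit the rise did not continue. There the share lower at 24 h was 9.23% from 1000 to 2000 bases, 7.28% from 2000 to 5000 and 6.51% above that. The shares higher were 7.73%, 4.85% and 4.06%. The median gap was 574 bases in pairs lower at 24 h, 540 in pairs that were higher and 490 in pairs not called. Just inside the limit, 87 pairs with gaps from 900 to 999 bases included 11 lower and 12 higher. Just outside it, 79 groups with gaps from 1000 to 1099 bases included 11 lower and 5 higher, and r of the left and right changes was 0.60 inside and 0.63 outside.

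Few shifts of H3K27ac from 1 window to the other passed the test. The balance was tested directly as the log2 change of the right window minus that of the left, with the library as a block, by edgeR over 4803 groups of 2 windows, of which 1574 were close pairs. At 2 h 0 close pairs passed, beside 0.0416% of all groups tested. At 4 h 4 pairs passed, or 0.254%, beside 0.375%, and at 24 h 7, or 0.445%, beside 1.44%. Wider groups had 62 shifts at 24 h, or 1.92%. At an unadjusted p under 0.05 in edgeR there were 116 shifts in close pairs at 2 h, 7.37%, against 260 in wider groups, 8.05%. At 4 h there were 100, 6.35%, against 311, 9.63%, and at 24 h 147, 9.34%, against 547, 16.9%. The median SE of a shift in close pairs at 24 h was 0.30 and the median size of a shift 0.21 on the log2 scale, so shifts of the usual size were not detectable in single pairs. Leaving out 1 library at a time left between 2 and 5 of these calls in close pairs at 24 h and 0 or 1 at 4 h. The lowest count at 24 h came without 24 h library B. Of the pairs described above whose windows had unlike values, those at 231229320 (4 h) and 20297552 (24 h) passed this test, and for the others a difference between the windows was not called.

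The shift with the lowest p at 24 h was at chromosome 7, 20637293 to 20638821, a weak pair with a gap of 728 bases. Its left window held 3.37 and 2.50 CPM at 24 h, against 8.26 and 9.38 CPM in DMSO. Its right window held 9.71 and 8.42 CPM at 24 h, against 7.12 and 6.82 CPM in DMSO. The left was thus the higher in both DMSO libraries and the right in both 24 h libraries. The shift was 1.95 (SE 0.40, edgeR adjusted p = 0.00105), while the summed level of the pair did not pass the test (log2 change -0.38, edgeR adjusted p = 0.261). This was the only one of the 6 named shifts that stayed below the threshold when each library was left out in turn.

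On chromosome 22 at 50246829 to 50247838, the windows lie 209 bases apart. The right held 39.2 and 30.9 CPM at 24 h, against 55.5 and 51.7 CPM in DMSO, and the left 75.9 and 71.4 CPM, against 66.0 and 71.9 CPM. The right window averaged 44.8 CPM at 2 h and 40.3 CPM at 4 h, and its change passed the test at 4 h and 24 h but not at 2 h. The left groups overlapped. The shift was -0.70 (SE 0.15, edgeR adjusted p = 0.00113), with an adjusted p of 0.106 without DMSO library A and 0.0736 without 24 h library B. On chromosome 1 at 59527158 to 59528158, with a gap of 200 bases, the left window held 7.73 and 11.1 CPM at 24 h, against 15.4 and 22.7 CPM in DMSO. The right held 11.1 and 9.33 CPM, against 6.83 and 9.38 CPM, and overlapped. The shift was 1.37 (SE 0.32, edgeR adjusted p = 0.00551), with an adjusted p of 0.274 when 24 h library A was left out and 0.125 when DMSO library B was.

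At a strong pair on chromosome 6, 147524042 to 147525249, the windows were unequal throughout. The right held 141 and 130 CPM at 24 h, against 169 and 164 CPM in DMSO, and the left 40.6 and 40.7 CPM, against 35.02 and 31.8 CPM. The shift was -0.58 (SE 0.14, edgeR adjusted p = 0.00881). The reverse arrangement was seen on chromosome 2 at 171784867 to 171786118. There the weak left window held 9.51 and 10.0 CPM at 24 h, against 17.9 and 17.9 CPM in DMSO, and the strong right window 80.6 and 88.5 CPM, against 85.1 and 93.2 CPM. Its shift was 0.80 (SE 0.22, edgeR adjusted p = 0.0251). Leaving out 1 library raised the adjusted p above the threshold for both pairs, to at most 0.152 without DMSO library B for the first and 0.223 without DMSO library A for the second.

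The pair at 20297552 on chromosome 11 lost H3K27ac in both windows but more in the right. The right window held 5.94 and 4.09 CPM at 24 h, against 20.5 and 21.3 CPM in DMSO, and the left 9.11 and 11.8 CPM, against 16.5 and 21.6 CPM. The shift was -1.16 (SE 0.32, edgeR adjusted p = 0.0248), with an adjusted p of 0.469 without 24 h library B and 0.0590 when close pairs were fitted alone. The shift outside the named 6 was at chromosome 4, 2537586 to 2538729 (-0.41, SE 0.12, edgeR adjusted p = 0.0364), given here after its values were seen. At 4 h the lowest p belonged to the pair at 231229320 on chromosome 1 (-1.68, SE 0.39, edgeR adjusted p = 0.0101), whose right window was at its lowest then.

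**Figure D5:**
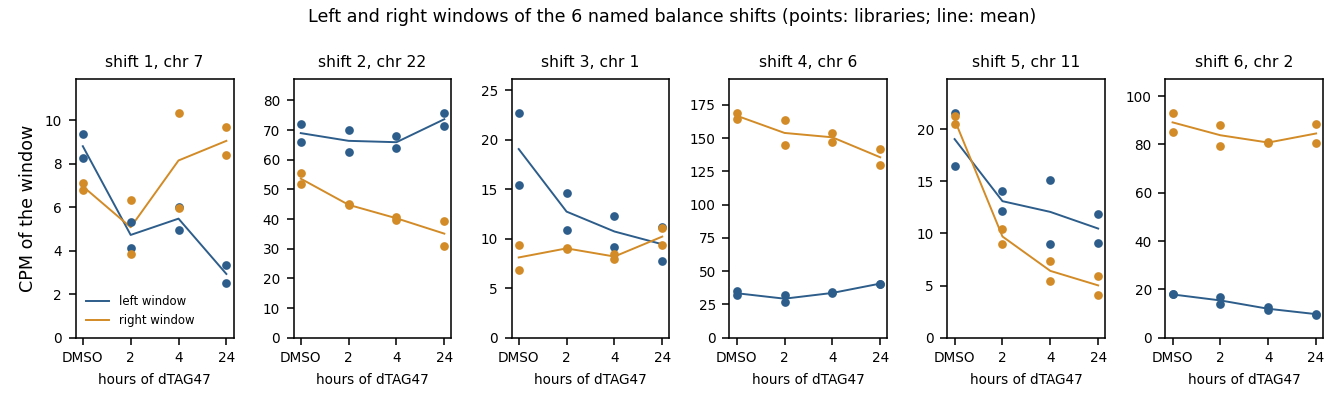
CPM of the left window (blue) and right window (orange) in the 6 named balance shifts, by group in the order DMSO, 2 h, 4 h and 24 h, with points for libraries and lines through group means. In the first panel the left window lies above the right in both DMSO libraries and below it in both 24 h libraries; in the fifth both windows are lower at 24 h and the right lies below the left.

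Except at the strongest, whose libraries were far apart within groups, the named pairs of highest level showed little change. The pair on chromosome 4 at 1872294 to 1873623 averaged 287 CPM over the 8 libraries and held 280 and 300 CPM at 24 h, against 303 and 277 CPM in DMSO. On chromosome 9 at 140134850 to 140136091, the pair averaged 240 CPM and held 242 and 219 CPM at 24 h, against 259 and 241 CPM in DMSO. Neither passed the test at any time. The highest level belonged to the pair on chromosome 7 at 61968800 to 61970577, at 525 CPM. It held 646 and 490 CPM at 24 h, against 497 and 615 CPM in DMSO, and its libraries ranged from 367 to 646 CPM. Its coefficient of variation within groups was 24.2%, against a median of 6.45% over the 792 close pairs at or above the median level. Nearly all of its signal lay in the left window, with 606 and 461 CPM at 24 h, against 457 and 580 CPM in DMSO.

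The pairs at the ends of the range of gaps did not pass the test at any time. The smallest gaps, 74 and 75 bases, belonged to weak pairs on chromosome 4 at 66879752 to 66880626 and on chromosome 19 at 1725354 to 1726229. They averaged 8.21 and 9.62 CPM. The gap of 999 bases occurred on chromosome 17 at 70117488 to 70119287, with 125.1 and 129 CPM at 24 h, against 145 and 129 CPM in DMSO. It also occurred on chromosome 2 at 73402858 to 73404657, with 27.7 and 27.7 CPM at 24 h, against 29.8 and 28.02 CPM.

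Chromosome 1 had the most calls at 24 h, with 23 lower and 17 higher among its 180 close pairs, or 12.8% and 9.44%. Chromosome 2 had 17 and 14 among 152, or 11.2% and 9.21%. The shares over close pairs of all autosomes were 9.79% and 7.64%, and no difference between chromosomes was tested.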

How the data were processed

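The authors' deposited table holds raw counts of reads in 42067 peak windows for the 8 H3K27ac libraries, in whole numbers with unequal totals. The submitters' processing notes name the builds hg19 and dm3 and, with no order or role, the tools DiffBind, DESeq2, MACS2, Bowtie2 and Trimmomatic 0.32. How peaks were called, any removal of duplicates and any spike-in scaling are not given in the sources used here. Totals are counts in peaks, not sequencing depth. The 2 input libraries were not analysed here. Columns carry the letters A and B and were matched to groups by name, with 0 columns left over.

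Windows were stitched at 12.5 kb with pandas 2.3.3. Counts summed over stitched groups, and counts of single windows, entered the quasi-likelihood test of edgeR 4.0.16 (R 4.3.3): filterByExpr with a minimum count of 10 and total of 15, TMM scaling, and 1 robust quasi-likelihood fit over the 4 groups, with p-values adjusted by Benjamini-Hochberg over the whole table. The biological coefficient of variation was 2.83% for stitched groups and 3.29% for windows, with median prior degrees of freedom of 390 and 182, so p-values and standard errors rest mostly on the spread shared by all regions and little on that of a pair's own libraries. Balance was tested as an interaction of side and group with the library as a block, in groups of 2 windows with a mean of at least 10 counts in each. The coefficient of variation of that fit was 2.48%. Its median prior degrees of freedom were infinite, so for a typical pair only the shared spread was used. Correlations used log2 CPM with a prior count of 2. Pairs named are, for each time against DMSO, the 6 lower and 6 higher with the largest change among those called, at or above the median level of tested groups and with both treated libraries on 1 side of both DMSO libraries; 4 and 4 for 24 h over 4 h; the 6 balance shifts with the lowest p at 24 h; the 3 highest levels; and the 2 smallest and 2 largest gaps. The members and rules were chosen with earlier results of these data known. The libraries of each group differed by more than sampling noise in the windows of close pairs (chi-square per degree of freedom from 1.07 to 1.25), so each was counted as a library. Alternatives were DESeq2 1.42.0, DESeq2 size factors and total counts as scaling, no filter, 2-group fits, other gap limits and stitching distances, stricter minimum counts, the column letter as a block, and leaving out each library.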

Additional observations from a re-analysis of the deposited data

Results flagged for a closer look

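Listed here are the 9 close pairs named for a change between times of dTAG47 that passed the test of that difference itself. Pairs named for other comparisons passed such tests too, among them that at 37279288 on chromosome 17 (24 h over 4 h, -0.61). As given above, several of these calls were lost without 1 library or in DESeq2. For 24 h over 4 h the log2 changes were -0.97 on chromosome 2 at 125456183 to 125457293, -0.93 on chromosome 10 at 109304515 to 109305963, -0.87 on chromosome 1 at 20356974 to 20358501 and -0.74 on chromosome 1 at 30180897 to 30182600. The higher ones were 0.90 on chromosome 1 at 95338788 to 95340345, 0.65 on chromosome 19 at 7534822 to 7535858, 0.56 on chromosome 6 at 158896020 to 158897000 and 0.53 on chromosome 22 at 43303477 to 43304758. For 4 h over 2 h, the change was -0.77 on chromosome 2 at 110255579 to 110256831, named after its values were seen.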

How the results depend on the processing

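Direction was kept by every result under every alternative run. Of 45 named log2 changes, all 45 kept their call under DESeq2 size factors, total counts, no filter and fits of the 2 groups alone, and 24 did in the Wald test of DESeq2. That test called fewer pairs: 5 lower and 0 higher at 2 h, 14 and 1 at 4 h, 55 and 21 at 24 h, 2 and 2 for 24 h over 4 h, 9 and 5 for 24 h over 2 h, and 0 lower for 4 h over 2 h. Its calls for 24 h over 4 h were 0.130% of close pairs in each direction, beside 0.0510% of all groups. For 24 h over 2 h they were 0.602% and 0.335%, beside 0.499% and 0.174%. Among windows it called 0 and 0, 12 and 0, 50 and 2, 0 and 0, and 4 and 1 in the first 5 of these comparisons. Its shares over all windows were not computed. The cause was not tested. Balance shifts at 4 h numbered 1 with close pairs fitted alone and 2 with at least 30 counts in both windows; the stricter minimum left out the pair at 20637293 on chromosome 7, so it gave no value there. The share of close pairs lower at 24 h was 7.93% with gaps under 500 bases and 8.40% with stitching at 25000 bases. The share that was higher was 6.42% and 5.36% under these rules, and 9.43% with stitching at 5000 bases. For the gap rule the shares of all tested groups stayed 5.55% lower and 4% higher. With the other stitching distances the shares of all groups were not computed, so those of close pairs there cannot be set against them. The left and right correlations at 2 h, 4 h and 24 h were 0.396, 0.453 and 0.629 in close pairs with at least 50 counts in both windows. In wider groups with such counts they were 0.227, 0.264 and 0.383. In separate libraries, an alternative chosen after seeing the data, those of close pairs were 0.107 and 0.175, 0.264 and 0.241, and 0.448 and 0.442.

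Leaving out 1 library at a time left these ranges of pairs, lower then higher: 18 to 39 and 0 to 7 at 2 h, 30 to 42 and 8 to 13 at 4 h, 97 to 113 and 58 to 74 at 24 h, 14 to 19 and 4 to 9 for 24 h over 4 h, 39 to 47 and 26 to 51 for 24 h over 2 h, and 0 to 0 lower for 4 h over 2 h. For windows they were 13 to 33 and 0 to 2, 25 to 35 and 2 to 9, 110 to 138 and 48 to 70, 3 to 11 and 2 to 6, and 28 to 44 and 13 to 41. Balance shifts ranged from 0 to 2 at 2 h, 0 to 1 at 4 h and 2 to 5 at 24 h. A lone library was then assumed to vary like the other groups. No named change of 24 h over DMSO lost its call, and 37 fits of other named changes did. The columns carry letters that are not matched to the replicate numbers of the labels. A fit with the letter as a replicate block, chosen after seeing the data, called 46 pairs lower and 7 higher at 2 h, 64 and 26 at 4 h, 156 and 122 at 24 h, 41 and 19 for 24 h over 4 h, 88 and 84 for 24 h over 2 h, and 1 and 0 for 4 h over 2 h. Differences between the libraries A and B correlated across regions between groups with r from -0.03 to 0.06, and the letters were not taken to pair the libraries. At 48 to 67 counts in the median window, small changes of single windows were not detectable.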

Other observations

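Besides the pair at 231229320 on chromosome 1, 3 close pairs had a shifted balance at 4 h, and in each the left window averaged more and the right less than in DMSO. None of these 6 windows passed the test singly, with edgeR adjusted p from 0.0546 to 0.352. On chromosome 19 at 33887569 to 33888679, the left window averaged 25.7 CPM at 4 h, against 17.5 CPM in DMSO, and the right 11.4 CPM, against 16.4 CPM (shift -1.07, SE 0.27, edgeR adjusted p = 0.0291). On chromosome 3 at 55122784 to 55123940, the left averaged 9.14 CPM at 4 h, against 4.55 CPM in DMSO, and the right 5.89 CPM, against 8.82 CPM (shift -1.58, SE 0.41, edgeR adjusted p = 0.0334). On chromosome 7 at 1335889 to 1337286, the left averaged 14.3 CPM at 4 h, against 9.53 CPM in DMSO, and the right 14.3 CPM, against 21.3 CPM (shift -1.16, SE 0.30, edgeR adjusted p = 0.0334). The summed levels of these 3 pairs did not pass the test at 4 h, and they were picked after their values were seen.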
